A study of Sorghum bicolor and Setaria italica and Zea mays with 20 samples.

Results

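The regions described are the DNaseI-hypersensitive sites (DHSs) of *Sorghum bicolor* that were listed in whole leaf and overlapped no DHS listed in bundle sheath by 1 bp or more. On the numbered chromosomes, Chr01 to Chr10, the whole-leaf list held 38336 DHSs, of which 9915 met this rule and were thus chosen by the positions of the 2 lists alone, or 25.9% of the list (95% Wilson interval 25.4% to 26.3%). The other 28421 overlapped a bundle-sheath DHS and are called shared. In the opposite direction, 5490 of 33695 bundle-sheath DHSs, or 16.3%, overlapped no whole-leaf DHS.

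The series holds DNaseI-seq data from 4 grasses in 20 samples, and the sorghum lists were made from 3 whole-leaf and 2 bundle-sheath samples. Both sorghum groups came from seedlings for which no treatment is named, at 18 d, harvested between 4 and 6 h after the lights came on, and labelled as leaf 3 (the methods add the next leaf). Each biological replicate pooled leaves of many plants. Bundle-sheath strands were freed by blending and filtering, whereas whole leaf was not separated and so still contains bundle-sheath nuclei. The replicates were combined before deposit into 1 DHS list and 1 footprint list per tissue. No value below therefore has a replicate error, no test was run, and intervals cover counting error over listed sites only.

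DNaseI cuts DNA that nucleosomes leave exposed, and clusters of cuts mark promoters, enhancers, and other regulatory DNA. Within such a site a bound transcription factor protects a short stretch from the enzyme, and this dip in cutting is called as a digital genomic footprint (DGF). In leaves of C4 grasses such as sorghum, mesophyll cells fix CO2 first and bundle-sheath cells, which surround the veins, release it again around Rubisco, so that the 2 cell types run different sets of photosynthesis genes on the same genome.

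Membership was set by positions in the deposited lists, and so depends on where those lists end. Whether the chromatin of the tissues differs at whole-leaf-only DHSs was not tested. Both lists are sorted by the fold enrichment that the peak caller gave the summit of a site over its background, and the whole-leaf list ends at 3.17-fold and the bundle-sheath list at 3.23-fold. The peaks in each list carry numbers that run in order along the genome, with 0 pairs out of order in either list. These numbers reach 115247 in whole leaf, of which 39026 are listed, and 123288 in bundle sheath, of which 34365 (27.9%) are listed. For 9914 whole-leaf-only DHSs a listed bundle-sheath DHS lay on each side, and in 9885 of these intervals the numbers skipped at least 1 bundle-sheath peak that is not listed. The median was 7 skipped peaks and the highest 65. Only 29 whole-leaf-only DHSs (0.293%) had no skipped peak in the interval around them. How often other intervals between neighbouring listed bundle-sheath DHSs skip a number was not computed. These counts are therefore not shown to be particular to whole-leaf-only DHSs. The numbers give no positions, so whether they coincide with the whole-leaf DHSs was not tested, and "whole-leaf-only" refers to the deposited lists.

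Whole-leaf-only DHSs stood low in the ranking by fold, although their median rank by reads at the summit was not low. Their median was 3.60-fold (quartiles 3.34 and 3.96, highest 7.47), compared with 4.64-fold in shared DHSs (quartiles 3.88 and 5.84, highest 34.8). Fold was under 4 in 76.8% of them, and 277 reached 5 and 33 reached 6. The best of them held rank 2847 of 38336, and 85.6% lay in the last 50% of the ranks. When the list was cut into 10 equal parts by fold, 8 of 3834 DHSs in the first part were whole-leaf-only (0.209%), rising through every part to 2155 of 3833 (56.2%, 54.6% to 57.8%) in the last. The rule used the same list that the fold ranks and ends, so these values describe the choice.

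**Figure D1:**
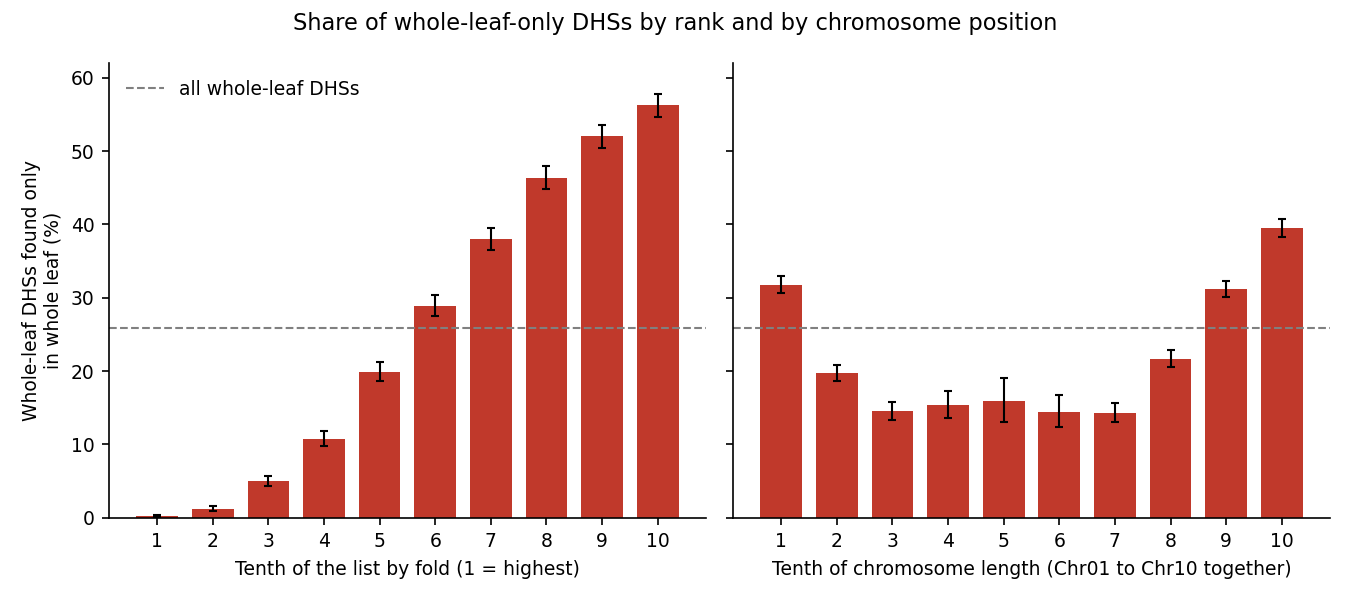
Percentage of whole-leaf DHSs that overlapped no bundle-sheath DHS, in 10 equal parts of the list ranked by fold (left) and in 10 equal parts of chromosome length over all chromosomes together (right). Bars give the share, whiskers the 95% Wilson interval, and the dashed line the 25.9% of the whole list. The share climbs from 0.209% to 56.2% down the ranks, and along the chromosomes it is 31.8% and 39.5% in the first and last parts and between 14.3% and 15.9% in parts 3 to 7.

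The 10 whole-leaf-only DHSs with the highest fold were spread over 7 chromosomes. The first lay at Chr07:305886-306682, close to the start of the chromosome, with 88 reads stacked at its summit over a background of 10.9, a −log10 p of 48.5, and 3 footprints. It was 10311 bp from the nearest bundle-sheath DHS. The second lay at Chr08:1743351-1744435 at 7.42-fold with 53 reads and 2 footprints, and the next at Chr03:10342720-10343422 at 7.25-fold with 78 reads and 2 footprints. The others in order were at Chr09:54789585-54790010, at Chr01:31974007-31974833, at Chr05:59188755-59189718, at Chr08:51371704-51372017, at Chr04:52439366-52440040, at Chr05:61097975-61100163, and at Chr07:50330436-50331300. These 10 ranged from 6.78-fold to 7.47-fold and from 314 to 2189 bp, and 9 of them held a footprint. The exception was the DHS at Chr04:52439366-52440040, which had 47 reads at its summit, no footprint, and a shared DHS 512 bp away. Positions are those of the assembly Sbicolor_255_v2.0, counted from 1. No annotation of that assembly was used here, so regions are given without genes or sequence.

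A fold joins 2 quantities, and whole-leaf-only DHSs differed from shared ones in both. For each DHS the fold and the p-value together fix 2 numbers, the reads stacked at the summit and the background that the peak caller expected there, which is the higher of the genome-wide mean and the mean around the site. Whole numbers of reads reproduced both columns, to within 0.001 on the −log10 p scale, for 72030 of the 72031 DHSs in the 2 lists, and for every whole-leaf-only DHS. Whole-leaf-only DHSs had a median of 57 reads at the summit (quartiles 36 and 74, highest 135) and shared DHSs 49 (quartiles 33 and 72, highest 248). Their background was a median of 14.4 reads (quartiles 8.92 and 18.9) against 8.32 in shared DHSs (quartiles 5.94 and 13.2). The background was at its genome-wide minimum of 5.94 in 14.1% of whole-leaf-only DHSs and in 32.0% of shared ones. Bundle-sheath-only DHSs had a median of 26 reads over a background of 5.77, with 46.9% of them at the bundle-sheath minimum of 5.50. They were not set beside shared DHSs of the bundle-sheath list, so how they differ from those was not computed. The 2 genome-wide means differed by 1.08 times, so the pooled libraries of both tissues had similar depth on this scale.

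At equal background whole-leaf-only DHSs had fewer reads at the summit than shared ones in all 7 classes of background. The medians were 23 and 31 reads under a background of 6, 28 and 39 from 6 to 8, 38 and 49 from 8 to 11, 49 and 63 from 11 to 14, 60 and 75 from 14 to 17, 70 and 87 from 17 to 20, and 86 and 103 above 20. At equal background reads and fold rise together by arithmetic, so these medians restate the lower fold of the class. The higher pooled median of 57 reads came with the higher backgrounds of the class.

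At equal fold the background and the reads are tied by arithmetic, since a higher background then needs more reads. In the last of the 10 parts of the ranks, where both classes had a median of 3.24-fold, whole-leaf-only DHSs had 44 reads over a background of 13.0 and shared DHSs 22 reads over 6.03. Their median −log10 p was 11.7 and 7.08. In part 6 the reads were 64 and 39, and the backgrounds 15.1 and 8.93. The first part differed, with 51 reads in its 8 whole-leaf-only DHSs and 70 in shared ones. The ranking accordingly depended on the column. Whole-leaf-only DHSs had a median rank 75.9% of the way down the list by fold, 58.1% by −log10 p, and 43.6% by reads at the summit.

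**Figure D2:**
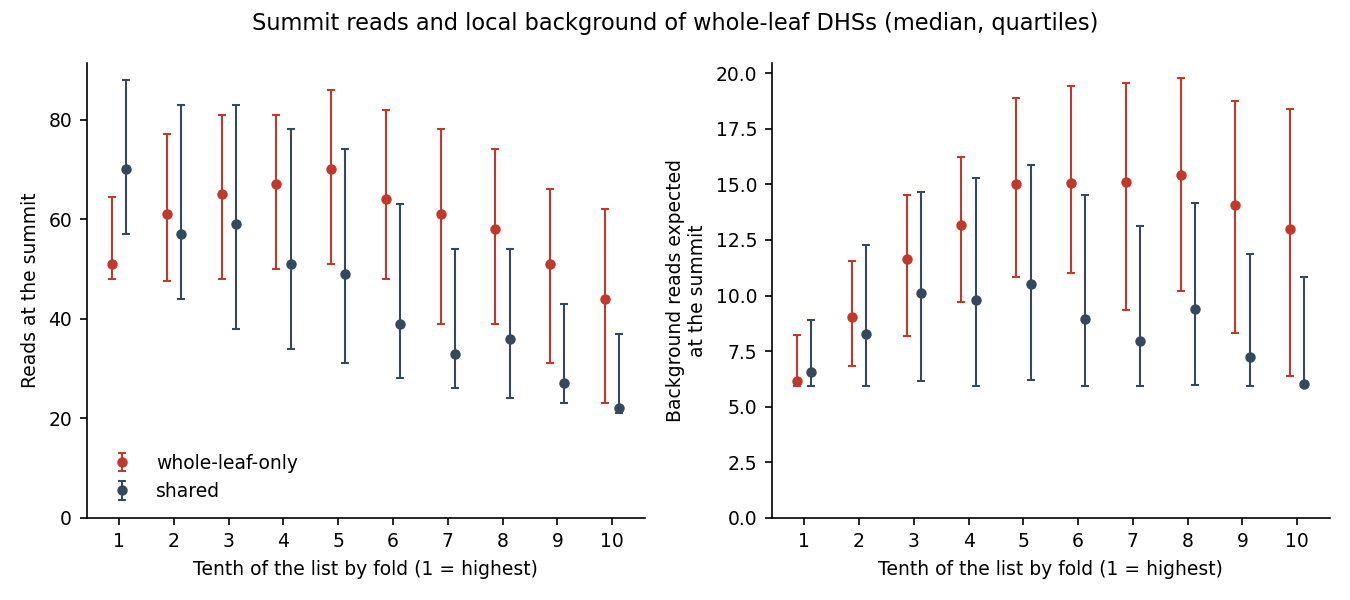
Reads at the summit (left) and background reads expected there (right) of whole-leaf-only and shared DHSs in each of 10 equal parts of the whole-leaf list by fold. Points are medians and whiskers quartiles over DHSs. In the last part the medians are 44 and 22 reads over backgrounds of 13.0 and 6.03. The first part holds 8 whole-leaf-only DHSs.

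The share of whole-leaf-only DHSs rose with the background. It was 13.3% among 10669 DHSs with a background under 6 reads, 14.1% from 6 to 8, 19.7% from 8 to 11, 27.3% from 11 to 14, 36.9% from 14 to 17, 45.8% from 17 to 20, and 56.3% among 3461 DHSs above 20. Within the class, width rose with it too, from a median of 511 bp under 6 reads to 1265 bp above 20, and so did the share with a footprint, from 81.8% to 97.2%. Whole-leaf-only DHSs thus ran from narrow sites with a median of 23 reads at the lowest background to broad sites with 86 reads at the highest. Shared DHSs differed in the same direction between these 2 classes. Their median width was 1168 bp under 6 reads and 1724.5 bp above 20, with 31 and 103 reads at the summit. The share of them with a footprint was 93.1% and 98.7%.

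Whole-leaf-only DHSs were narrower than shared ones. Their median width was 937 bp (quartiles 575 and 1506, from 162 to 7558), against 1445 bp (quartiles 883 and 2331, from 161 to 14878) for the whole-leaf interval of shared DHSs and 821 bp for bundle-sheath-only DHSs. Widths under 500 bp made up 19.6% of whole-leaf-only and 7.35% of shared DHSs, and widths above 3000 bp made up 3.87% and 14.9%. Together the whole-leaf-only DHSs covered 11.5 Mb, which is 18.2% of the length of all whole-leaf DHSs. On each of the 10 chromosomes their median width was below that of shared DHSs, and it ranged from 741 bp on chromosome 5 to 1012 bp on chromosome 1. A wider interval has more chance to touch another, so width also entered the choice.

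**Figure D3:**
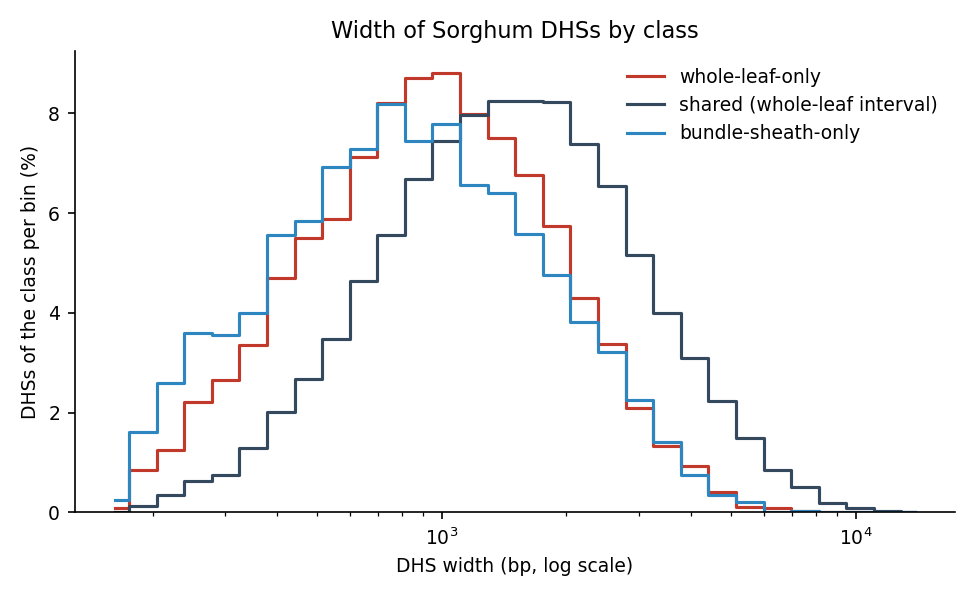
Distribution of DHS width in base pairs, on a log scale, for whole-leaf-only, shared, and bundle-sheath-only DHSs, as the percentage of each class in each bin. The whole-leaf-only and bundle-sheath-only curves lie to the left of the shared curve, with medians of 937, 821, and 1445 bp.

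The 5 widest whole-leaf-only DHSs all lay in the final 10% of their chromosomes. The widest, at Chr03:72137834-72145391, was 7558 bp long and held 14 footprints, with 84 reads at the summit over a background of 17.0. The others lay at Chr10:58394382-58401367 with 11 footprints, at Chr03:68907510-68914079 with 16, at Chr02:76018161-76024692 with 13, and at Chr04:65426371-65432876 with 18. The nearest bundle-sheath DHS was between 1174 and 46959 bp from these 5. Their summits were no more than 4.71-fold over background, although 82 to 131 reads were stacked there.

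Along the chromosomes, whole-leaf-only DHSs were concentrated towards the ends more than shared DHSs were. In the outer 40% of chromosome length 7486 of 24224 whole-leaf DHSs were whole-leaf-only (30.9%), and in the middle 20% 237 of 1581 were (15.0%). The share was higher in the outer part on each of the 10 chromosomes, by 4.32 percentage points on chromosome 5 and by 24.2 on chromosome 6 at the extremes. Per megabase there were 28.4 whole-leaf-only DHSs in the outer part and 1.80 in the middle, a ratio of 15.8, whereas shared DHSs gave 63.6 and 10.2, a ratio of 6.23. The final 10% of the chromosomes had the highest share, 39.5%, and the first 10% had 31.8%. Chromosomes as a whole ranged from 19.1% whole-leaf-only on chromosome 5 (679 of 3552) to 29.1% on chromosome 3 (1363 of 4685).

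Position and background moved together, and their parts in the share were not separated by a test. In the outer 40% the median background of whole-leaf-only DHSs was 15.9 reads, and in the middle 20% it was 5.94, the genome-wide minimum. Among DHSs with a background under 6 reads the share was 12.4% in the outer 40% and 13.8% elsewhere. In every higher class of background it was higher in the outer 40%. It was 15.8% and 12.1% from 6 to 8 reads, and 22.0% and 15.5% from 8 to 11 reads. From 11 to 14 reads it was 28.9% and 22.4%, and from 14 to 17 reads 37.8% and 32.5%. From 17 to 20 reads it was 46.1% and 44.3%, and above 20 reads 56.4% and 54.8%. The 237 whole-leaf-only DHSs of chromosome middles were the narrow and shallow ones, with a median of 512 bp, 23 reads against 34 in shared DHSs there at the same background, and a −log10 p of 7.69, and 77.6% of them held a footprint against 93.8% in the outer part.

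The densest 1-Mb stretches also lay near chromosome ends. Chr09:57000001-58000000 held 55 whole-leaf-only DHSs among 96, Chr04:60000001-61000000 held 54 among 92, and Chr02:72000001-73000000 held 53 among 94. Of the 485 such stretches with 20 or more whole-leaf DHSs, 16 were more than 50% whole-leaf-only and 2 had none.

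Most whole-leaf-only DHSs lay close to a shared one. The distance to the nearest shared DHS had a median of 4142 bp (quartiles 1296 and 10403), with 20.6% within 1000 bp and 74.0% within 10 kb. Shared DHSs were nearer to each other, with a median of 1981 bp to the next shared DHS, and whole-leaf-only DHSs were farther from each other, with a median of 9389 bp. These 3 medians depend on how many DHSs of each class there are. To any listed bundle-sheath DHS the median was 3525 bp, and to the nearest bundle-sheath-only DHS it was 37587 bp. The smallest gap between 2 DHSs of the whole-leaf list was 172 bp, whereas 132 whole-leaf-only DHSs lay within 200 bp of a bundle-sheath DHS and 8 within 100 bp.

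Where intervals almost met, the 3 DHSs closest to the line on each side of the rule had similar folds but not similar widths. Other DHSs near the line were not summarised, and a wider interval has more chance to overlap, so width entered this choice too. The nearest whole-leaf-only DHS, at Chr06:48109559-48110772, lay 15 bp from a bundle-sheath DHS and had 67 reads at the summit and 2 footprints. The next were at Chr10:41350035-41350214, at 36 bp, and at Chr07:54064298-54064711, at 46 bp. On the other side, a DHS at Chr02:57861377-57862877 counted as shared through an overlap of 12 bp, another at Chr02:20170462-20173174 through 22 bp, and 1 at Chr03:65886455-65887782 through 70 bp. The folds were 3.32 to 3.80 for the 3 inside and 3.35 to 4.18 for the 3 outside. The 3 inside were 180 to 1214 bp wide with at most 2 footprints each, and the 3 outside were 1328 to 2713 bp wide with 3 to 7. Few sites were this close to the line, since 4 shared DHSs overlapped by 100 bp or less and the median overlap was 1281 bp.

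With distance from a shared DHS, whole-leaf-only DHSs became stronger in reads until 50 kb and then fell off. Within 1 kb of a shared DHS they had a median of 42 reads over a background of 10.6, at 5 to 10 kb 62 reads over 16.0, and at 20 to 50 kb 72 reads over 18.5 with a median width of 1210.5 bp. The 217 that lay beyond 50 kb had 24 reads over 5.94, a median width of 580 bp, and a footprint in 81.6%. The median fold stayed between 3.46 and 3.61 in all these groups. The 5 farthest from a shared DHS were at Chr09:25060097-25060937 (485109 bp away), at Chr02:30571658-30571897 (459916 bp), at Chr04:27241018-27241193 (423686 bp), at Chr04:23663390-23663653 (404992 bp), and at Chr09:32364997-32365361 (371806 bp). They had between 21 and 26 reads at the summit and at most 1 footprint each. For 3 of these 5 a bundle-sheath-only DHS was nearer than that, at 69334, 8300, and 18545 bp.

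**Figure D4:**
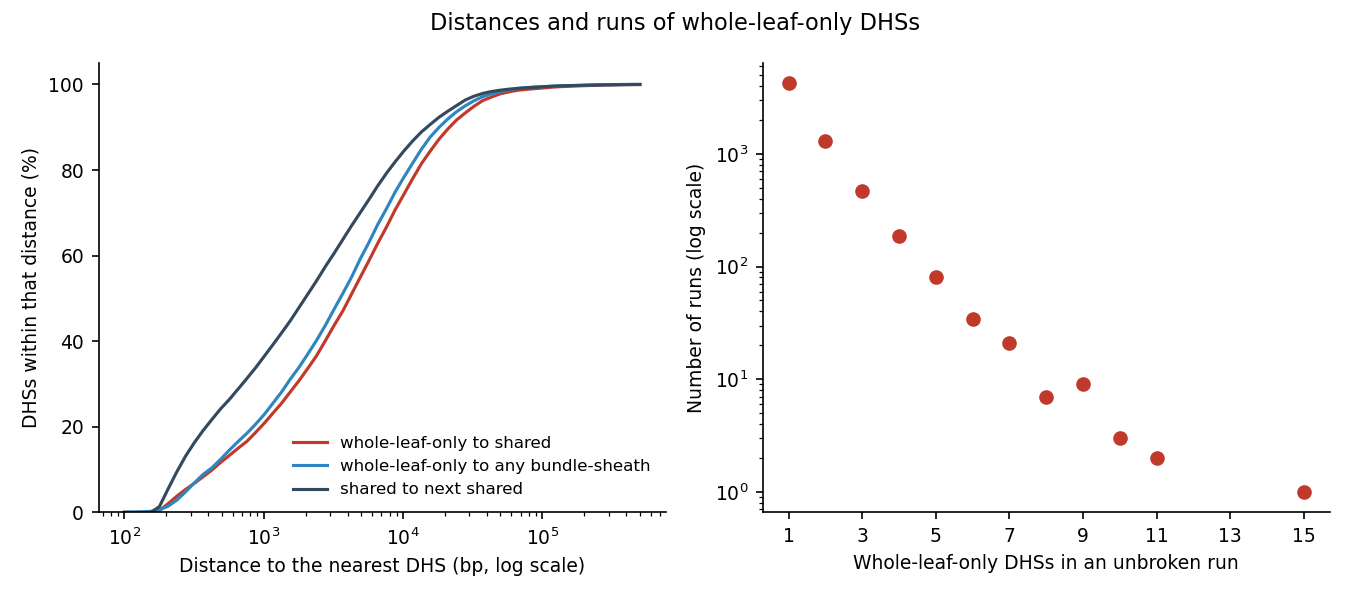
Left, cumulative percentage of DHSs within a given distance (base pairs, log scale) of the nearest shared DHS or nearest bundle-sheath DHS, for whole-leaf-only DHSs, and of the next shared DHS, for shared ones. Right, number of unbroken runs of whole-leaf-only DHSs (log scale) by the number of DHSs in the run. The medians at left are 4142, 3525, and 1981 bp, and the runs fall from 4214 of a single DHS to 1 of 15.

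Neighbouring whole-leaf-only DHSs formed runs with no shared DHS between them. There were 6322 runs, of which 4214 were single DHSs, and 5701 whole-leaf-only DHSs (57.5%) had another as a neighbour. Whole-leaf-only DHSs made up 25.9% of the list, and how many would be neighbours at that share alone was not computed. Runs of 5 or more numbered 157, held 955 DHSs, and lay in the outer 40% of their chromosome in 144 cases (91.7%). Of all 9915 whole-leaf-only DHSs, 7486 lay in that part. The longest, at Chr04:58706431-58865761, had 15 DHSs over 159 kb with 57 footprints and contained 1 bundle-sheath-only DHS. The next were runs of 11 at Chr02:72989304-73078739, with 34 footprints, and at Chr10:414070-514012, with 37, and neither contained a bundle-sheath DHS. The median background in these 3 runs was 26.0, 20.3, and 15.0 reads, and their folds ran from 3.18 to 5.01.

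Shared DHSs close to whole-leaf-only ones were relatively deeper in whole leaf than shared DHSs far from them. The lists give no bundle-sheath reads at whole-leaf-only DHSs, so the same ratio could not be taken there. This was read from 24798 shared DHSs in which 1 whole-leaf interval met exactly 1 bundle-sheath interval. The ratio of whole-leaf to bundle-sheath reads at the summit had a median of 1.24 (quartiles 1.05 and 1.43) for the 2018 pairs within 1 kb of a whole-leaf-only DHS, 1.19 for those at 10 to 20 kb, and 1.10 (quartiles 0.960 and 1.29) for the 5319 beyond 50 kb. The ratio of the backgrounds, in pairs where both exceeded their minimum, stayed between 1.06 and 1.09 in all these groups. The quartiles of the groups overlapped widely, and background and position differed between them as well, whose part in the ratio was not tested.

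Footprints were present in most whole-leaf-only DHSs. The whole-leaf footprint list held 139429 footprints on these chromosomes, each 11 to 25 bp long and each inside a whole-leaf DHS, and 28559 of them (20.5%) lay in whole-leaf-only DHSs. At least 1 footprint was found in 9155 whole-leaf-only DHSs, or 92.3% (91.8% to 92.8%), compared with 94.9% of all whole-leaf DHSs and 95.8% (95.5% to 96.0%) of shared ones. The median was 2 footprints per DHS and the highest 19, against 3 and 29 in shared DHSs. From 1 to 3 footprints were found in 62.2%, 10 or more in 164 DHSs, and none in 760. Those without a footprint had a median width of 446 bp and those with one 989 bp. Within classes of width the shares with a footprint were close, and whole-leaf-only DHSs had the lower one only above 300 and up to 500 bp. There they were 80.8% in whole-leaf-only and 81.0% in shared DHSs. Up to 300 bp they were 66.7% and 65.3%, and above 750 and up to 1000 bp 95.3% and 93.6%. By background, whole-leaf-only DHSs had the lower share in every class. The shares were 81.8% and 93.1% under a background of 6 reads, and 97.2% and 98.7% above 20. By reads at the summit they had the lower share in every class below 100 reads. From 100 reads up the shares were 98.9% and 98.4%. Shared DHSs were also the wider ones in each class of background and of reads. Bundle-sheath footprints were called inside bundle-sheath DHSs, so that of 126001 of them 0 overlapped a whole-leaf-only DHS.

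Per kilobase, whole-leaf-only DHSs held slightly more footprints than shared ones, 2.49 against 2.15, and the order was the same on all 10 chromosomes. Narrow DHSs have more footprints per kilobase in either class, but the order also held in each of 8 classes of width. Above 300 and up to 500 bp the densities were 2.88 and 2.80, above 1000 and up to 1500 bp 2.50 and 2.28, and above 3000 bp 2.24 and 1.98. Footprints in whole-leaf-only DHSs also lay nearer to the summit, at a median of 183.5 bp against 275.5 bp, in intervals that were narrower to begin with.

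Footprint scores, which are more negative for stronger protection, had a median of −17.2 in whole-leaf-only DHSs (quartiles −21.4 and −14.0) and −15.9 in shared DHSs (quartiles −20.5 and −12.9). The median footprint was 23 bp long in both, and the greatest length allowed, 25 bp, made up 41.3% and 42.2%. The score followed the reads at the summit. With 50 to 59 reads the medians were −16.0 and −15.4, with 70 to 79 reads −18.9 and −18.4, with fewer than 30 reads −10.2 and −10.8, and with 100 or more −25.7 and −26.7, so that whole-leaf-only DHSs had the more negative median from 40 to under 100 reads and shared DHSs had it below and above. In chromosome middles it was −10.2 in whole-leaf-only and −13.1 in shared DHSs. By background the order was the opposite of the pooled one, with shared DHSs the more negative in every class. The medians were −10.1 in whole-leaf-only and −12.8 in shared DHSs under 6 reads of background, and −21.8 and −25.3 above 20. In these classes shared DHSs also had more reads at the summit. On 9 of 10 chromosomes whole-leaf-only DHSs had the more negative median, and chromosome 5, where they had a median of 33 reads at the summit against 38, was the exception with −13.6 against −14.0.

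**Figure D5:**
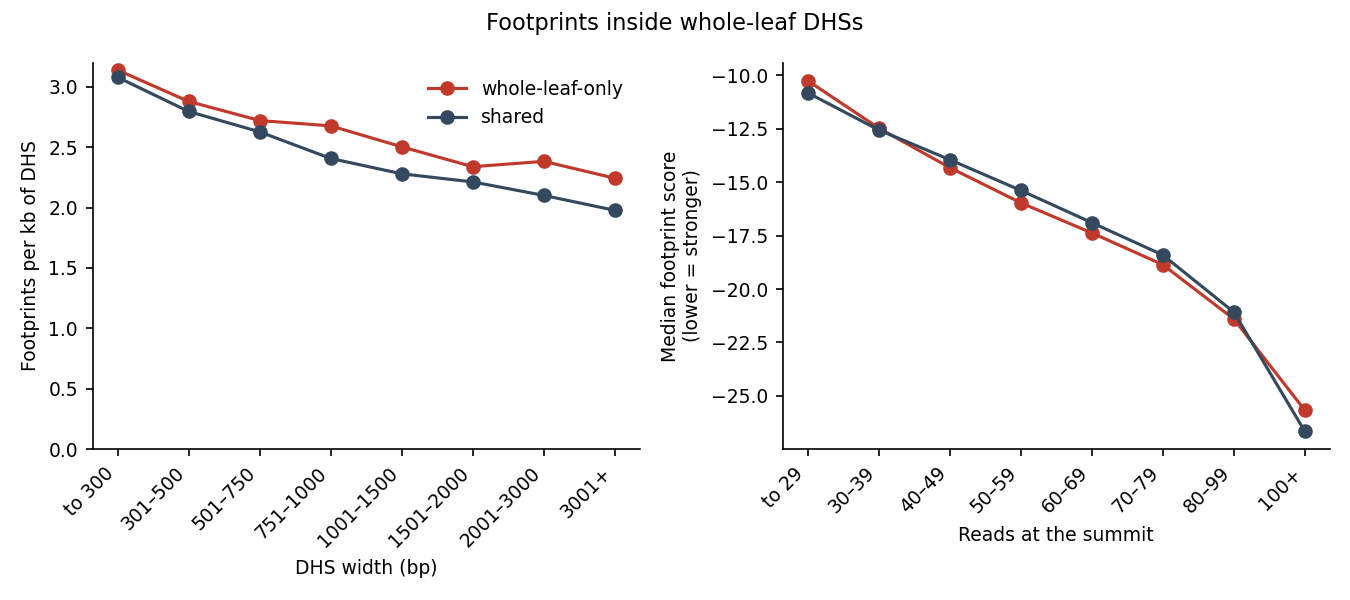
Left, footprints per kilobase of whole-leaf-only and shared DHSs in 8 classes of width in base pairs. Right, median footprint score (lower is stronger) in 8 classes of reads at the summit. Points are values over all DHSs or footprints of a class. The density is higher in whole-leaf-only DHSs in each class of width, and the scores of both classes fall from above −11 to below −25 with rising reads.

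The whole-leaf-only DHS with the most footprints, 19, lay at Chr10:10286057-10292055. It was 5999 bp wide with only 35 reads at its summit, and 16 of its footprints were in the list of footprints enriched in whole leaf. The next were Chr04:65426371-65432876, also among the 5 widest, with 18 footprints, Chr06:48547836-48554340 with 18, Chr04:63732412-63738395 with 17, and Chr03:67901948-67907105 with 17. The strongest single footprint scored −130.7 and spanned 25 bp at Chr03:68807109-68807133, in a DHS of 1900 bp with 91 reads at the summit. The next 4 scored −88.8 at Chr01:11907676-11907700, −87.2 at Chr03:73967395-73967419, −83.6 at Chr01:51679378-51679402, and −74.2 at Chr02:65996260-65996282. In shared DHSs 8 footprints had a score of −1000, and in whole-leaf-only DHSs 0 did.

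Footprints that the authors listed as enriched in whole leaf over bundle sheath were slightly less frequent in whole-leaf-only than in shared DHSs over the whole list, and the order depended on the background. Of all whole-leaf footprints 55.3% shared their start with an entry of that list. In whole-leaf-only DHSs 15324 of 28559 did, or 53.7% (53.1% to 54.2%), and in shared DHSs 55.7% (55.4% to 56.0%). The strongest footprint of the class, on chromosome 3, was not in the list of enriched footprints. At least 1 enriched footprint was present in 70.9% of whole-leaf-only and 80.0% of shared DHSs. By reads at the summit the enriched share in whole-leaf-only DHSs was 39.7% with fewer than 30 reads, 64.8% with 30 to 39, and 38.4% with 100 or more, and shared DHSs gave 49.4%, 65.4%, and 36.9%. By background it was lower in whole-leaf-only DHSs under 6 reads (35.4% against 58.4%) and from 6 to 8 (54.4% against 61.1%), and higher in each class from 8 reads up, from 64.3% against 60.7% between 8 and 11 to 47.1% against 39.6% above 20.

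The same rule was applied to the other C4 grasses with both tissues. In *Setaria italica* 8254 of 40003 whole-leaf DHSs were whole-leaf-only (20.6%, 20.2% to 21.0%), and in *Zea mays* 8380 of 43539 (19.2%, 18.9% to 19.6%). As in sorghum, they were narrower than shared DHSs, with medians of 741.5 bp and 1261.5 bp against 1075 and 1945 bp, stood low in the ranks by fold, and had the higher background, by 1.48 times in *S. italica* and 1.41 times in *Z. mays* against 1.73 times in sorghum. The reads at the summit did not share 1 order, with medians of 57 in whole-leaf-only and 49 in shared DHSs in sorghum, 36 and 35 in *S. italica*, and 26 and 31 in *Z. mays*. Footprints per kilobase were higher in whole-leaf-only than in shared DHSs in *S. italica*, 2.73 against 2.46, and lower in *Z. mays*, 0.528 against 0.856. In *Z. mays* the genome-wide background of whole leaf was only 1.22 reads, and 32.3% of whole-leaf-only and 61.3% of shared DHSs held a footprint. The paper states that footprints in this species were not saturated. Whether depth has a part in that order was not tested. The tissues had unequal genome-wide backgrounds in *S. italica*, 4.93 reads in whole leaf and 14.6 in bundle sheath, so that its share cannot be set beside that of sorghum as a difference between species.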

How the data were processed

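Reads were mapped by the authors with Bowtie2 to Sbicolor_255_v2.0 and filtered with SAMtools. DHSs were called on pooled reads with MACS2, and the irreproducible discovery rate between replicates set how many were kept. Each deposited DHS has from the authors' peak caller a score, a −log10 p-value, and the fold enrichment, which is a ratio. Each deposited DGF carries the authors' Wellington score, called inside DHSs. For DGFs enriched in 1 tissue, which the authors called with a companion of Wellington, positions alone were deposited. Versions are not given in the sources used here.

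From these lists, overlaps of at least 1 bp, distances between nearest edges, and shares with 95% Wilson intervals were computed with Python 3.11.15, NumPy 2.4.6, SciPy 1.17.1, and pandas 2.3.3, and figures were drawn with matplotlib 3.10.9. BEDTools 2.31.1 gave the same 9915 DHSs. Reads at the summit and background were solved from fold, taken as (reads + 1) / (background + 1), and the Poisson p-value. This was tried on 29965 pairs of reads and background that were drawn at random and turned into fold and p-value by the same formula. It returned 100% of the read numbers, and 0 of 29965 mismatched pairs were solved. The pairs were not sites of the sorghum list, so this checked the solving step only. Depth per sample is not in the lists. The last position in any sorghum list stood for the end of a chromosome.

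The DHSs named were the 10 with the highest fold, the 5 widest, the 5 farthest from a shared DHS, the 5 with most footprints, the 5 with the strongest footprint, the 3 longest runs, the 3 on each side of the rule, and the 3 fullest 1-Mb stretches. The members and lists were chosen with earlier results of these data known. Solving for reads and counting skipped peak numbers were added after seeing the data. Alternatives covered the overlap rule, the ends of the lists, the ranking column, unplaced sequences, and the footprints counted. Columns of samples outside the series numbered 0.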

Additional observations from a re-analysis of the deposited data

How the results depend on the processing

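No paired analysis was possible because each tissue is 1 list of combined replicates, and for the same reason no replicate could be left out. Of 65 values recomputed, 36 stayed inside the 95% interval of the reported value (for counts of DHSs, within 1.5 times), and 29 did not. With the top 50% of the whole-leaf list there were 1423 whole-leaf-only DHSs, with a median width of 1011 bp, distance of 6452 bp, and rank of 81.2%, a footprint in 93.9%, 2.44 footprints per kilobase, and an outer share 7.20 points above the middle. With the top 50% of the bundle-sheath list these values were 21398, 1074 bp, 9642 bp, 67.2%, 93.5%, 2.36, and 19.4 points. With the whole-leaf list cut to the length of the bundle-sheath list, the width was 976 bp, the distance 4483 bp, the rank 76.6%, and the share with a footprint 93.4%. Counting gaps of up to 1000 bp as shared gave 982 bp, 5848.5 bp, and 92.9%. Ranks were 58.1% by −log10 p and by the score, and 43.6% by reads (chosen after seeing the data). By reads the median of the class thus lay in the upper and not the lower 50% of the list. Distance between centres was 5719 bp. The stronger 50% of the footprints left 62.5% of DHSs with one and 1.44 per kilobase. Chromosomes cut into 3 equal parts instead gave 12.0 points. Requiring no skipped bundle-sheath peak (chosen after seeing the data) left 29. Listed sites next to each other are not independent, so intervals are too narrow.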

Other observations

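On sequences not placed on a chromosome, the whole-leaf list held 690 further DHSs, of which 107 (15.5%, 13.0% to 18.4%) overlapped no bundle-sheath DHS. They lay on 21 sequences, had a median width of 548 bp, and reached 5.62-fold. Among the 29 whole-leaf-only DHSs of the chromosomes with no skipped bundle-sheath peak around them, the median width was 222 bp and 20 held a footprint. The highest of them by fold, chosen after its values were seen, lay on chromosome 5 from 57116167 to 57116471, with 38 reads at the summit, a fold of 5.62, 2 footprints, and 7974 bp to the nearest bundle-sheath DHS.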
